A study of Mus musculus with 6 samples.

Results

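The genes described here encode the proteins from which keratinocytes build the cornified envelope, the enzymes that crosslink and deiminate those proteins, and the S100A calcium-binding proteins whose genes lie in the same chromosomal cluster. They were chosen by name from the authors' deposited table, which compares p63-excised with p63-intact mouse squamous cell carcinomas. Every entry whose name starts with Sprr, Lce or S100a was taken, with the numbered Tgm and Padi genes and 17 genes named singly. This gave 43 of the 16381 entries per the authors' deposited table. Of the 17 genes named singly, 12 were listed, and Lor, Flg, Hrnr, Dsc1 and Aloxe3 were not. RefSeq (GRCm38.p6) holds 79 protein-coding genes that the naming rule covers, of which 42 were listed by symbol and 3 more share the listed name Sprr2a. Of the other 34, S100a9, Sprr1a and Sprr1b among them, only Lce6a, listed under an older clone name, has a value below. The rest are not analysed here.

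The p63-excised group held 3 tumours and the p63-intact group 3, on 1 Illumina bead array each. All 6 came from p53+/-, p63L/L; K14-CreER mice of a mixed c57BL/6 - CD1 background, treated weekly with the carcinogen DMBA until squamous cell carcinomas formed. In these mice both alleles of p63 carry loxP sites, and a Cre recombinase driven by the keratin 14 promoter becomes active with tamoxifen. A primary tumour was taken apart, and its cells grew for 13 days in Nude mice, which lack a thymus. The mice then received tamoxifen (p63-excised) or vehicle (p63-intact) daily for 5 days, and whole tumours were taken 1 to 3 days after the last dose. Tamoxifen and excision therefore cannot be told apart. Only cells that express keratin 14 can lose p63, while host stroma, vessels and leukocytes keep it. The labels do not say that tumours of a group grew in separate mice, so the p-values measure the spread among these samples, part of which may be technical.

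In the epidermis, keratinocytes that leave the basal layer make envelope precursors such as involucrin, loricrin and the small proline-rich proteins. Transglutaminases crosslink these precursors beneath the cell membrane, deiminases turn their arginines into citrullines, and lipoxygenases prepare the lipids that are bound to the outer face. p63 is the transcription factor that maintains stratified epithelium, and several genes of this cluster are known as its direct or indirect targets in keratinocytes. Squamous carcinomas that keratinise make many of the same proteins.

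One of the 43 genes changed at an adjusted p under 0.05. Padi1, encoding a deiminase of the upper epidermis, rose 3.80-fold in p63-excised tumours per the authors' deposited table. A positive change is read as higher in p63-excised tumours. The name of the comparison implies this order, and the header of the authors' deposited table does not state it. A check against the arrays, chosen after seeing the data, took the 28 entries with an average log2 level of at least 9 and a log2 change of at least 1 either way. In log2 level and change, 22 of the 28 lay closer to some probe of the quantile-normalized intensities with p63-excised minus p63-intact, and 6 with the sign turned. These counts were computed here and are not the authors'. The direction is therefore likely and not stated. Over all listed entries 1.16% passed, so 1 of 43, or 2.33%, is near the background. Involucrin and corneodesmosin came next, in opposite directions: Ivl had a log2 change of -1.56 and Cdsn of 0.94 per the authors' deposited table, and neither passed. The adjustment (Benjamini-Hochberg) takes each of the 45281 probes on the array as a test, an upper bound, because the authors' deposited table lists only entries with p up to 0.462. With the 16381 listed entries taken as all tests, Padi1, Cdsn and Ivl fell under 0.05 (adjusted p = 0.00938, 0.0271 and 0.0423 from the p-values of the authors' deposited table). So did 2.97% of all listed entries. Entries with a larger p are missing from that number of tests, so it is too small and these adjusted p are too low.

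At a p under 0.05 before adjustment there were 11 of the 43 genes per the authors' deposited table, or 25.6%, against 19.9% of all listed entries. Of these, 8 were higher in p63-excised tumours (18.6%, against 9.31% of listed entries) and 3 were lower (6.98%, against 10.6%) per the authors' deposited table. Among entries whose average log2 level reached 5.5, the share was 32.1% of 28 genes, below the 42.9% of all such entries per the authors' deposited table. Of these 28, 6 were higher and 3 lower at that p, against 925 and 908 of the 4269 such entries. At that level the share of higher genes was thus near that of all such entries. Of the 43 log2 changes, 33 were positive and 10 negative, with a median of 0.22, per the authors' deposited table. Over all 16381 entries 51.0% were positive and the median was 0.05 per the authors' deposited table. Changes of at least 2-fold were seen upward in 3 genes (Padi1, Cnfn and Sbsn) and downward in 1 (Ivl), which is 9.30% of the 43 against 1.79% of all entries per the authors' deposited table. Most listed entries lie below a level of 5.5, where such changes were rare. At 5.5 or above, there were 3 upward and 1 downward of 28 genes, against 154 and 132 of 4269 entries. Because an entry is listed there only with a p up to 0.462, these shares describe the listed genes and do not stand for the families as a whole.

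**Figure D1:**
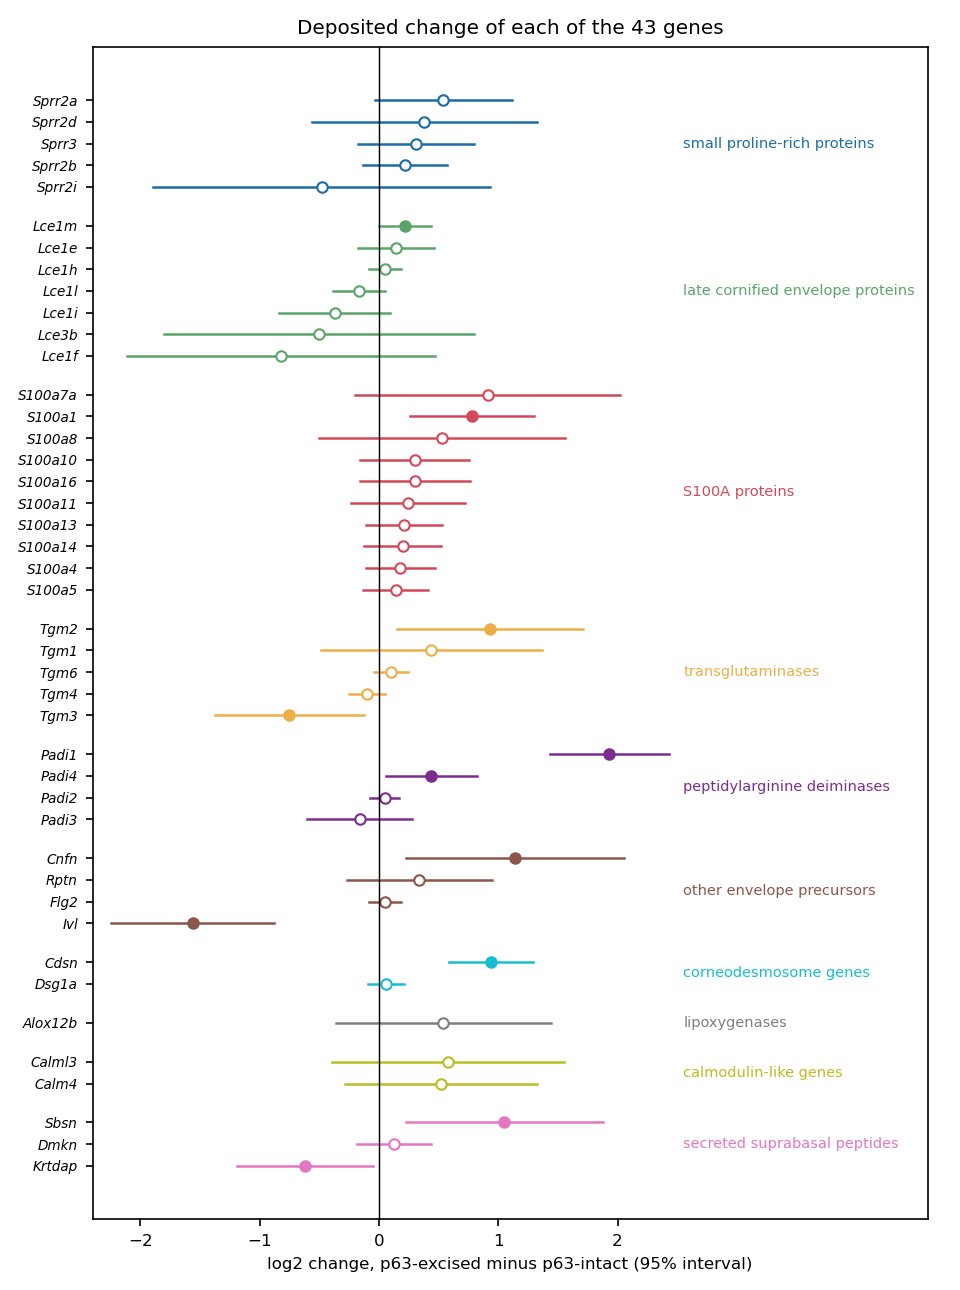
The log2 change of each of the 43 genes (p63-excised minus p63-intact, x axis), grouped by role, taken from the authors' deposited table; bars are 95% intervals computed from its change and t, and filled points have a p under 0.05 before adjustment. Padi1 at 1.93 and Ivl at -1.56 mark the extremes, and most intervals of the S100A and small proline-rich genes cross 0.

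Values per array are not used here, because the probe tables hold probe identifiers without gene names. For each gene the authors' deposited table gives 1 change and 1 mean level, and no spread within a group or overlap between groups can be stated. Where a group mean is printed, it is the mean that this level and change imply if the level averages all 6 arrays. Standard errors and 95% intervals were computed from the change and t of the authors' deposited table, with the 6.69 degrees of freedom that its t and p imply. The median standard error of the 43 genes was 0.20 on the log2 scale, ranging from 0.051 to 0.59. The number of arrays limits this precision. For 21 of the 32 genes with a p of 0.05 or more before adjustment, the interval lay within a 2-fold change either way, and for 11 it did not. Of these 21, 13 had an average log2 level below 5.5, near the lowest level, where a narrow interval does not show that a level was stable. Detected probes (detection p under 0.05) numbered 11964 to 14520 per p63-excised array and 13757 to 16096 per p63-intact array.

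The 4 listed deiminases did not share 1 direction. Padi1 converts arginine to citrulline in keratins and other proteins of the upper epidermis. Its implied average log2 levels were 7.07 in p63-excised and 5.14 in p63-intact tumours, and the change was 1.93 ± 0.21 (SE; 95% interval 1.43 to 2.43, adjusted p = 0.0259) per the authors' deposited table. The p63-intact mean lay close to 4.62, the lowest mean level per the authors' deposited table. Padi4, which deiminates histones and is best known from granulocytes, had a log2 change of 0.44 (interval 0.062 to 0.82, p = 0.0284) per the authors' deposited table. Padi3, which acts on filaggrin and on trichohyalin of the hair follicle, was at -0.16 (interval -0.60 to 0.28) per the authors' deposited table. Padi2, a widely expressed deiminase, was at 0.05 (interval -0.072 to 0.17) at an average log2 level of 4.91 per the authors' deposited table. In the RefSeq order (GRCm38.p6) these 4 genes stand side by side on chromosome 4, as Padi4, Padi3, Padi1 and Padi2. Between the neighbours Padi3 and Padi1 the deposited log2 changes thus differed in sign, and the difference between genes was not tested.

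Among the envelope precursors listed, involucrin and cornifelin had the widest changes. Involucrin is an early scaffold of the envelope, laid down beneath the membrane before loricrin. Ivl had implied average log2 levels of 8.32 in p63-excised and 9.88 in p63-intact tumours, a change of -1.56 ± 0.29 (SE; interval -2.24 to -0.88, adjusted p = 0.117) per the authors' deposited table. Cornifelin is a small protein that is crosslinked into the envelope. Cnfn had implied average log2 levels of 10.75 in p63-excised and 9.61 in p63-intact tumours, a change of 1.14 (interval 0.23 to 2.05, p = 0.0217, adjusted p = 0.496) per the authors' deposited table. Repetin and filaggrin-2 are fused-type S100 proteins of the granular layer. Rptn was at 0.34 (interval -0.27 to 0.95) per the authors' deposited table. Flg2 was at 0.05 with an average log2 level of 4.80 per the authors' deposited table, near its lowest level, where a decrease could hardly be seen.

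The 5 transglutaminases split as well. Tgm1 is the membrane-bound enzyme that crosslinks the envelope in keratinocytes, and it was at 0.44 (interval -0.49 to 1.37) per the authors' deposited table. Tgm3, the soluble epidermal and hair follicle enzyme, had implied average log2 levels of 7.27 in p63-excised and 8.02 in p63-intact tumours, a change of -0.75 (interval -1.37 to -0.13, p = 0.0249, adjusted p = 0.524) per the authors' deposited table. Tgm2, the tissue transglutaminase of many cell types including endothelium and macrophages, had implied average log2 levels of 6.72 in p63-excised and 5.79 in p63-intact tumours, a change of 0.93 (interval 0.15 to 1.71, p = 0.0259, adjusted p = 0.533) per the authors' deposited table. The enzymes known from prostate (Tgm4) and neurons (Tgm6) were at -0.10 and 0.10, with average log2 levels of 4.88 and 4.86 near the lowest per the authors' deposited table. The 2 epidermal crosslinkers, Tgm1 and Tgm3, thus had changes of opposite sign, and that difference was not tested.

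Corneodesmosin is the glycoprotein that converts desmosomes into the corneodesmosomes of the horny layer. Cdsn had implied average log2 levels of 11.21 in p63-excised and 10.27 in p63-intact tumours, a change of 0.94 ± 0.15 (SE; interval 0.59 to 1.29, adjusted p = 0.075) per the authors' deposited table. Desmoglein 1 alpha, a cadherin of the same junction, was at 0.06 (interval -0.094 to 0.21) at an average log2 level of 4.90 per the authors' deposited table. The lipoxygenase Alox12b, which oxidises the linoleate of envelope ceramides, was at 0.54 (interval -0.36 to 1.44) per the authors' deposited table. Calm4 and Calml3, calmodulin-like proteins of differentiating keratinocytes, were at 0.52 and 0.58 (intervals -0.29 to 1.33 and -0.40 to 1.56) per the authors' deposited table. They lie next to each other on chromosome 13 in the RefSeq order. For the lipoxygenase and both calmodulin-like genes the interval held 0 as well as a 2-fold higher level per the authors' deposited table.

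Suprabasin, dermokine and keratinocyte differentiation-associated protein are secreted by suprabasal keratinocytes, and their genes are direct neighbours on chromosome 7 in the RefSeq order. Their changes ran from higher to lower along that order. Sbsn had implied average log2 levels of 9.50 in p63-excised and 8.45 in p63-intact tumours, a change of 1.05 (interval 0.23 to 1.87, p = 0.0199, adjusted p = 0.479) per the authors' deposited table. Dmkn was at 0.13 (interval -0.18 to 0.44) per the authors' deposited table. Krtdap had implied average log2 levels of 10.46 in p63-excised and 11.08 in p63-intact tumours, a change of -0.62 (interval -1.19 to -0.046, p = 0.0381, adjusted p = 0.626) per the authors' deposited table. The intervals of Sbsn and Krtdap per the authors' deposited table did not overlap, which is a description of 2 genes chosen after their values were seen.

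**Figure D2:**
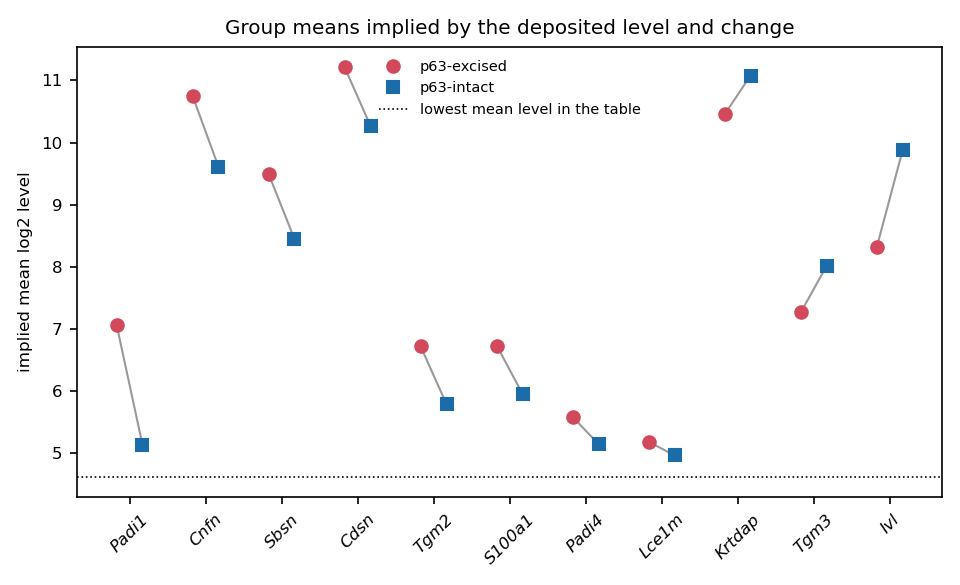
Mean log2 levels (y axis) of the 11 genes with a p under 0.05 before adjustment, as implied by the mean level and change per the authors' deposited table: p63-excised as circles, p63-intact as squares to their right, with no error bars because no values per array are used. Padi1 starts near the dotted line of the lowest listed level (4.62), while Cdsn, Cnfn, Krtdap and Ivl lie well above it in both groups.

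The promoters of Padi1, Sbsn, Ivl and Krtdap are shown because these genes include the 1 that passed, the precursor with the lowest value and both ends of the chromosome 7 trio. Each is the 250 bases before the RefSeq start (GRCm38.p6), on the strand of the gene, with capitals for motif matches. The AP-1 motif was searched in a loose form, TGANTCA, with any base in the middle. The motif of the TATA element was searched as TATAAA. The windows are chr4:140845779-140846028 on the minus strand for Padi1, chr7:30751221-30751470 on the plus strand for Sbsn, chr3:92573736-92573985 on the minus strand for Ivl and chr7:30787655-30787904 on the plus strand for Krtdap.
Padi1: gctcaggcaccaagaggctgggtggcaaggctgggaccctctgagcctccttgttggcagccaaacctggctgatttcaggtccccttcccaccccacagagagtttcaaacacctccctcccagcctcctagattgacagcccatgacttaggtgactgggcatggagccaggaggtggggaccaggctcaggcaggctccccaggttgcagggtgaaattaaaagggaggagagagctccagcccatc
Sbsn: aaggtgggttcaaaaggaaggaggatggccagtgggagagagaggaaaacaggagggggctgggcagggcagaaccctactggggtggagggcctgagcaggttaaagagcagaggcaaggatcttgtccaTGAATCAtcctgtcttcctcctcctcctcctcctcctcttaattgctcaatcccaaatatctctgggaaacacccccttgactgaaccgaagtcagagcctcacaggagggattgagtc
Ivl: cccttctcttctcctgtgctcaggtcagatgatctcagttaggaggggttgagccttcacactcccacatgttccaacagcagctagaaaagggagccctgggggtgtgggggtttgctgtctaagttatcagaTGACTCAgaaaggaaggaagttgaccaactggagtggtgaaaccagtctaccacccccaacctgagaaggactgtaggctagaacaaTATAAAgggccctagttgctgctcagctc
Krtdap: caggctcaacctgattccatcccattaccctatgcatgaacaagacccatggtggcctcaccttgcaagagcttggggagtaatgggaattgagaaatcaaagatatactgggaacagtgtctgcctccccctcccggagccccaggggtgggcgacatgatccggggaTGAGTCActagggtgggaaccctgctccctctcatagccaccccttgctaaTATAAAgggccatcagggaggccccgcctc
The TGANTCA match began 119 bases before the start in Sbsn, 116 in Ivl and 81 in Krtdap. It read TGAATCA in Sbsn, TGACTCA in Ivl and TGAGTCA in Krtdap. The TATA letters began 29 bases before the start in Ivl and 30 in Krtdap. The Padi1 window held neither. Sbsn and Krtdap, whose changes had opposite signs, thus both held a TGANTCA match, with different middle bases. Both strands were searched, and the motifs did not overlap in these windows.

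RefSeq promoters were at hand for 36 of the 43 genes. TGANTCA stood in 11 of the 36 windows (30.6%), against 6.87% of 27025 windows of the same length. TATAAA stood in 13 (36.1%), against 13.0% of all windows. Several of the windows belong to near-identical Sprr2 copies, so they are not independent. A pair of CATG cores with 6 bases between them, as a p53-family site can hold, stood in none of the 36 and in 0.507% of all windows. Of the 10 genes with a p under 0.05 before adjustment and a promoter, 4 held TGANTCA (Ivl, Krtdap, Padi4 and Sbsn), and of these Ivl and Krtdap had negative changes and the others positive ones per the authors' deposited table. A match describes letters in a window and not binding.

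Small proline-rich proteins are crosslinked bridges between other precursors, and Sprr2 genes are also induced in stressed epithelium. None of 5 listed members had a p under 0.05 before adjustment per the authors' deposited table. Sprr2a was at 0.54 (interval -0.033 to 1.11, p = 0.0607) per the authors' deposited table. Sprr2d, with an average log2 level of 12.10, was at 0.38 (interval -0.56 to 1.32) per the authors' deposited table. Sprr3 and Sprr2b were at 0.31 and 0.22, and Sprr2i was at -0.48 (interval -1.89 to 0.93), per the authors' deposited table. The intervals of Sprr2a, Sprr2d and Sprr2i each held 0 as well as a 2-fold change in 1 direction. The Sprr2 genes are near-identical copies, and the deposited name Sprr2a covers 3 RefSeq genes, so a value may belong to more than 1 of them.

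Late cornified envelope proteins are added to the envelope late in differentiation. Of the 7 listed Lce genes 4 had negative and 3 positive changes, with a median log2 change of -0.17 per the authors' deposited table. Lce1m had the smallest p (0.0472) with a log2 change of 0.22 (interval 0.0039 to 0.44) at an average log2 level of 5.07 per the authors' deposited table. Lce1f was at -0.82 (interval -2.11 to 0.47) and Lce3b at -0.50 (interval -1.80 to 0.80) per the authors' deposited table. Lce1i and Lce1l were at -0.37 and -0.17 with p of 0.1 and 0.105 per the authors' deposited table. Lce1e and Lce1h were at 0.14 and 0.05 per the authors' deposited table. Apart from Lce1f and Lce3b, the average log2 levels of these genes lay between 4.79 and 5.09 per the authors' deposited table, close to its lowest level. Lce6a, listed under an older clone name and therefore outside the 43, was at -0.13 (p = 0.0838) per the authors' deposited table. The Lce1 genes are close copies too, and their probes may read several of them.

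Most S100A proteins bind calcium through paired EF hands, and keratinocytes and leukocytes both make several S100A proteins. All 10 listed members had positive log2 changes, from 0.14 to 0.91, with a median of 0.27 per the authors' deposited table, where 51.0% of all entries were positive. Only S100a1 of the 10 had a p under 0.05 before adjustment, where 19.9% of all entries reach that p. None passed the adjustment per the authors' deposited table. S100a1, which is most abundant in striated muscle, had implied average log2 levels of 6.73 in p63-excised and 5.95 in p63-intact tumours, a change of 0.78 (interval 0.26 to 1.30, p = 0.00991, adjusted p = 0.35) per the authors' deposited table. All 8 listed muscle markers also had positive changes, against the same 51.0% of all entries. At a p under 0.05 before adjustment there were 4 of them, such as Des at 1.40 and Acta1 at 1.60, against the same 19.9%. None of the 8 passed the adjustment, and their average log2 levels ran from 4.82 to 6.25 per the authors' deposited table. The part of muscle tissue in the S100a1 value was not tested. In whole tumours, a change in the share of a cell type and a change in RNA per cell cannot be told apart.

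The alarmin S100a8, a subunit of calprotectin made by stressed keratinocytes and by neutrophils, was at 0.53 (interval -0.50 to 1.56) with an average log2 level of 12.14 per the authors' deposited table. S100a7a, a mouse relative of human psoriasin, was at 0.91 (interval -0.20 to 2.02, p = 0.0935) per the authors' deposited table. Of 14 neutrophil markers, 9 were listed, 4 with positive and 5 with negative changes, and 3 higher and none lower at a p under 0.05 before adjustment per the authors' deposited table. None passed the adjustment. Over all entries 9.31% were higher and 10.6% lower at that p. The granule genes Mpo, Camp, Ngp and Mmp8 were at -0.09, -0.09, -0.10 and -0.11. Their average log2 levels were 4.88, 4.81, 4.90 and 4.84 per the authors' deposited table, near its lowest level of 4.62. Il1b was at -0.76 (interval -2.11 to 0.59) with an average log2 level of 8.07, and Csf3r was at 0.10, per the authors' deposited table. Lcn2 and Ltf, which epithelia also make, were at 2.91 (p = 0.0045) and 3.41 (p = 0.0253) per the authors' deposited table. Cd177, a surface protein of neutrophils, was at 0.29 (p = 0.0343) with an average log2 level of 5.12 per the authors' deposited table. The part of neutrophils in the S100a8 value was not tested.

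The remaining S100A genes had smaller changes. S100a10, the partner of annexin A2 at the membrane, and S100a16 were both at 0.30 (p = 0.162 and 0.166) per the authors' deposited table. S100a11, which is crosslinked into the envelope, was at 0.24 with the highest average log2 level of the 43 genes, 12.71, per the authors' deposited table. S100a13 and the epithelial S100a14 were at 0.21 and 0.20, with intervals of -0.11 to 0.53 and -0.12 to 0.52, per the authors' deposited table. S100a4, known from fibroblasts and leukocytes, was at 0.18, and S100a5 at 0.14, with average log2 levels of 5.26 and 4.89 per the authors' deposited table. For 7 of the 10 S100A genes the interval lay within a 2-fold change either way per the authors' deposited table, and 2 of these 7 had an average log2 level below 5.5.

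**Figure D3:**
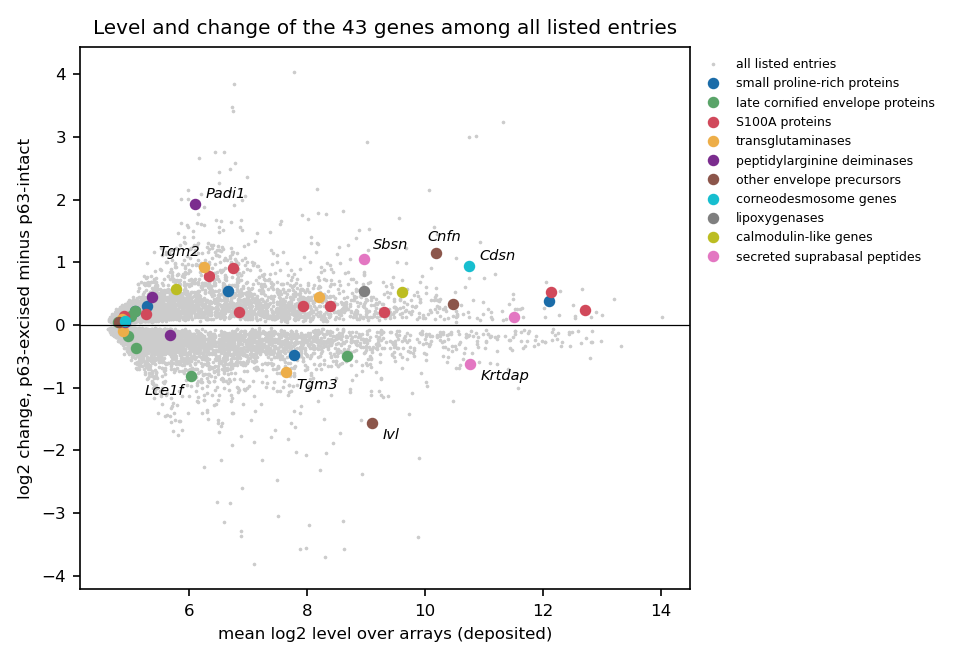
Log2 change (y axis) against average log2 level (x axis) for all 16381 listed entries (grey) and the 43 genes (coloured by role), from the authors' deposited table. The empty band along 0 reflects the limit of the listing at a p of 0.462, and Ivl stands apart below the other genes while Padi1 stands above them.

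The small proline-rich, involucrin, late envelope, filaggrin-family and S100A genes form the epidermal differentiation complex on mouse chromosome 3. RefSeq places 56 protein-coding genes covered by the naming rule there, and 24 of them were listed by symbol per the authors' deposited table. Of the 24, 18 (75%) had positive and 6 negative changes, where 51.0% of all entries were positive per the authors' deposited table. The 6 negative ones were Sprr2i, Ivl, Lce1f, Lce1i, Lce1l and Lce3b, which lie in the middle stretch, with other genes of positive change between them. The S100A genes at both ends of the cluster had positive changes per the authors' deposited table. At a p under 0.05 before adjustment there were S100a1, Lce1m and Ivl, which is 2 higher and 1 lower per the authors' deposited table. These 3 are 12.5% of the 24, below the 19.9% of all listed entries. Among the genes of the naming rule, the nearest listed ones on either side of Ivl are Sprr3 at 0.31 and Lce6a, under its older name, at -0.13 per the authors' deposited table. Neither had a p under 0.05 before adjustment.

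**Figure D4:**
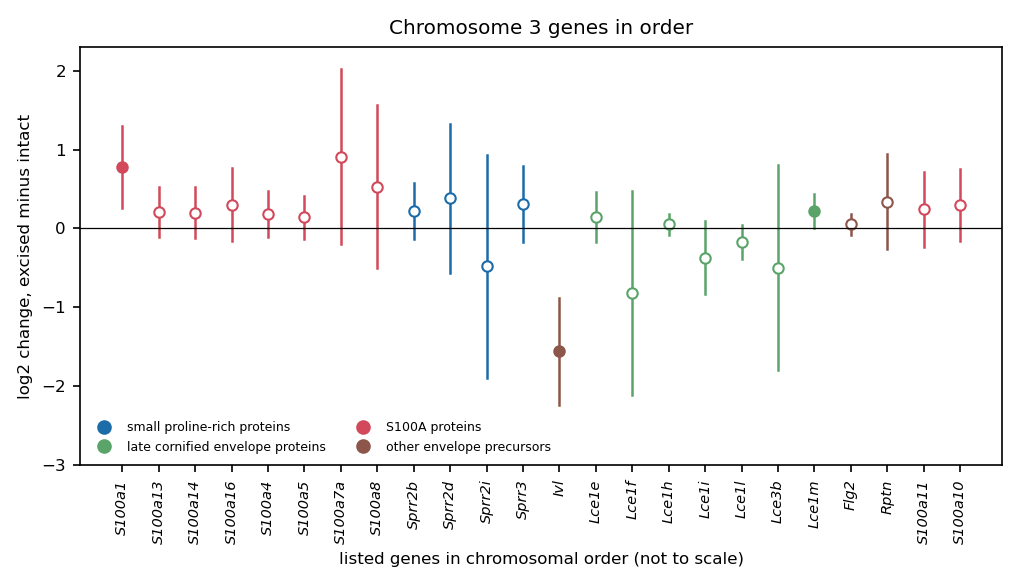
Log2 change with 95% interval (y axis) for the 24 genes on chromosome 3 that the authors' deposited table lists by symbol, in RefSeq order (x axis, not to scale); filled points have a p under 0.05 before adjustment. Sprr2a is left out because its name covers 3 RefSeq genes, and Ivl at -1.56 lies below the listed genes on either side of it.

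Other genes that serve envelope and barrier formation were examined as lists that hold none of the 43. Of 12 listed genes that process filaggrin or inhibit its proteases, 7 were higher and 1 lower at a p under 0.05 before adjustment per the authors' deposited table. Over all entries 19.9% reach that p, and 42.9% of those with an average log2 level of 5.5 or above. The levels of the 12 genes ran from 4.97 to 12.46. St14, encoding the membrane protease matriptase, rose by 0.96 in log2 (interval 0.77 to 1.15, adjusted p = 0.014) per the authors' deposited table. The other 11 did not pass. Among them Asprv1, the protease that trims profilaggrin, was at 0.91 (p = 0.0168) and Prss8, the protease prostasin, at 1.15 (p = 0.0205) per the authors' deposited table. Klk14, a kallikrein of desquamation, was at 1.21, and the convertase genes Pcsk6 and Furin at 0.35 and 0.26, per the authors' deposited table. Ctsl, encoding cathepsin L, was at -0.17 per the authors' deposited table.

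None of 13 listed genes of envelope and barrier lipids passed, with 3 higher and 2 lower at a p under 0.05 before adjustment per the authors' deposited table. Over all entries 1.16% passed, and 9.31% were higher and 10.6% lower at that p before adjustment. Of entries with an average log2 level of 5.5 or above, 42.9% reached it. Slc27a4, a fatty acid transporter needed for the skin barrier, was at 1.04 (adjusted p = 0.0972), and Sult2b1, the cholesterol sulfotransferase, at 0.84 (p = 0.00575), per the authors' deposited table. Elovl1, an elongase of very long fatty acids, was at 0.46, while Abca12, the lamellar granule lipid transporter, and Fa2h, a fatty acid hydroxylase, were at -0.20 and -0.31 per the authors' deposited table. Of 9 scaffold and desmosome genes none passed, and Ppl (periplakin) at 0.98 and Pkp2 (plakophilin 2) at 0.45 had a p under 0.05 before adjustment (0.00174 and 0.000593) per the authors' deposited table. Periplakin is a plakin on which the envelope is assembled. Krt80 at 0.66 and Krt78 at 1.09 had a p under 0.05 before adjustment among 6 suprabasal keratins per the authors' deposited table. Krt10 was at 1.70 with a wide interval of -0.26 to 3.66. None of the 6 passed the adjustment, and the shares of all entries given above are the background for these keratins and the scaffold genes.

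Of 11 listed transcriptional regulators of these genes none passed, and their median log2 change was -0.11 per the authors' deposited table. Casz1 and Cebpb were at 0.20 and 0.40 (p = 0.00847 and 0.0324) per the authors' deposited table. Among 5 listed S100 partners, receptors and other S100 genes, Ahnak, encoding a large scaffold that binds the S100A10 and annexin A2 complex, rose by 0.69 in log2 (interval 0.47 to 0.91, adjusted p = 0.0453) per the authors' deposited table. The other 4 did not pass, and over all entries 1.16% passed. Anxa2, Anxa1 and S100b were at -0.24, 0.51 and -0.06, with a p of 0.05 or more before adjustment, per the authors' deposited table. Tlr4, encoding a receptor for calprotectin, was at 0.25 (p = 0.0436) per the authors' deposited table. None of 5 listed envelope partners (Anxa1, Crct1, Trex2, Lypd3 and Scel) had a p under 0.05 before adjustment per the authors' deposited table. Anxa1 is counted in both of these last lists.

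**Figure D5:**
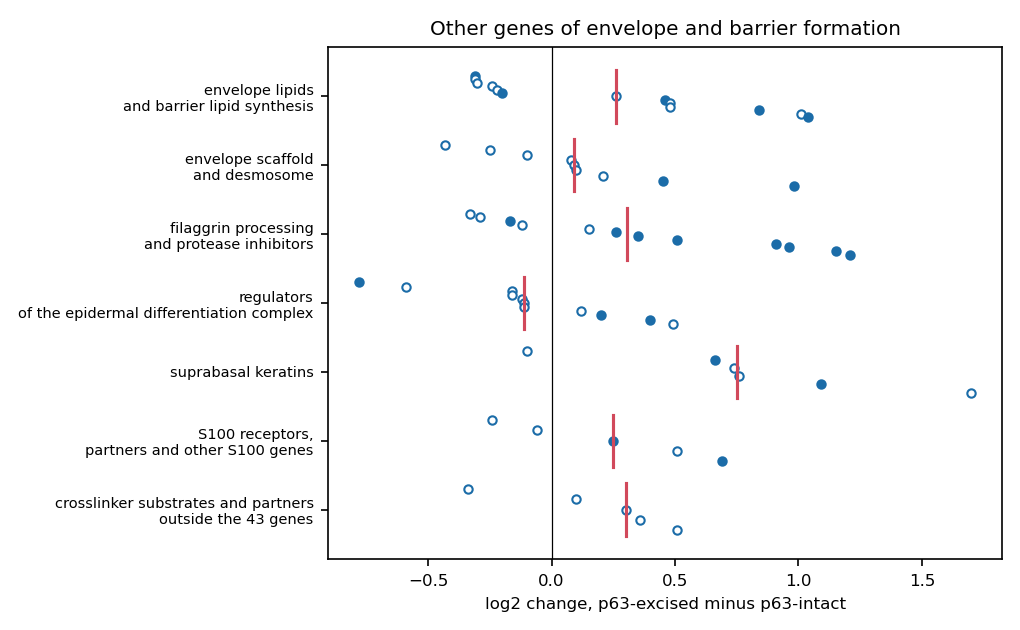
Log2 changes (x axis, p63-excised minus p63-intact) of the listed genes in 7 lists of envelope and barrier formation, from the authors' deposited table; filled points have a p under 0.05 before adjustment and vertical lines mark each list's median. The filaggrin-processing list has 7 filled points above 0 and 1 below, and the suprabasal keratins have the highest median, 0.75.

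Squamous markers lay far above the lowest listed level in these tumours: Krt14, Krt5 and Krt6b had average log2 levels of 14.02, 11.65 and 12.54 per the authors' deposited table, and none of the 3 had a p under 0.05 before adjustment. Trp63, the excised gene, was at -0.25 (interval -0.52 to 0.019, p = 0.0639) per the authors' deposited table. Whether its probe reads the excised exons is unknown here, so the group labels are not checked by this value. Sfn, encoding the keratinocyte protein stratifin, was at -0.64 (p = 0.00809) per the authors' deposited table. Of 10 macrophage markers 6 were listed, 2 with positive and 4 with negative changes per the authors' deposited table. Lyz2 at -1.73 and Lyz1 at -0.21 had a p under 0.05 before adjustment, while Cd14 at 0.42, Cd68 at 0.47, C1qa at -0.35 and Mrc1 at -0.64 did not, per the authors' deposited table. None of the 6 passed the adjustment, and over all entries 10.6% were lower at that p. The average log2 level of Lyz1 was 4.83, near the lowest listed level. Of 7 fibroblast markers 4 were listed and none had a p under 0.05 before adjustment, with Dcn at -0.90, Lum at -0.70, Col3a1 at -0.29 and Pdgfrb at 0.24 per the authors' deposited table. Endothelium and adipocytes had 1 listed marker each, Cdh5 at 0.28 and Fabp4 at -0.11 per the authors' deposited table. The part of host cells in the values of Tgm2, Padi4 and S100a4 was not tested.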

How the data were processed

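RNA of 6 whole tumours was labelled with biotin for Illumina bead arrays, per the labels. The comparison table that the authors deposited gives per gene name, by its header, the log2 change, the fold change with a sign, the average log2 level, a t score, a p-value before adjustment and a log-odds score. The column names are those of limma output; the submitters' processing notes name R 2.12.0, and how values were normalized and probes joined into genes is not stated there. The deposited table of signal intensity and detection p-value for 45281 probes served to count probes and, after log2 and quantile normalization, to check the direction of the comparison. It carries no gene names, so the planned limma fit of member probes was not run, and a table of log2 values per probe was not used.

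Names of 42 of the 43 entries matched RefSeq symbols (GRCm38.p6). Deposited p-values (two-sided) were adjusted over 45281 tests after Benjamini and Hochberg, at a threshold of 0.05. Standard errors are the change divided by t, so those of small changes carry rounding error. The recovery of standard errors and degrees of freedom was tested on simulated data. Named are all 43 genes, and of each other list genes with a p under 0.05 before adjustment (up to 6) with some markers chosen after their values were seen. One gene of these lists is not reported here. The genes and lists were chosen with earlier results of these data known. Python 3.11.15, pandas 2.3.3, numpy 2.4.6 and scipy 1.17.1 were used.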

Additional observations from a re-analysis of the deposited data

How the results depend on the processing

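The count of genes past the test was 1 of 43 (Padi1) with all 45281 probes as tests. It was 3 with the 16381 listed entries as all tests and 3 with the 13727 probes detected on at least 3 arrays as all tests, in each case Padi1, Cdsn and Ivl. Neither number is a valid count of tests. The 16381 leave out entries with a p above 0.462, and 13727 is below the number of p-values listed. The adjusted p are too low in both cases, so Cdsn and Ivl are not counted as passing. An adjusted p of 0.1 gave 2, Padi1 and Cdsn, and a p of 0.05 before adjustment gave 11. Among entries whose average log2 level reached 5.5, the count was 1. These settings move the threshold alone and leave every change as deposited. No paired analysis was possible because the values of these genes come from a deposited comparison without values per array. For the same reason other background corrections and normalizations, filters on dim probes, array weights and leaving out each array were not run, and how far 1 array decides a value was not analysed here.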
